A study of Caenorhabditis elegans with 2 samples.

Results

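The genes described here are the 270 nuclear hormone receptor genes of Caenorhabditis elegans among 19973 protein-coding genes, in a chromatin immunoprecipitation sequencing (ChIP-seq) experiment on the transcription factor PAX-3. They were chosen by name: 265 protein-coding genes carry an nhr symbol and are not nhr-23, nhr-25, nhr-73 or nhr-74, and the other 5 are daf-12, unc-55, odr-7, sex-1 and fax-1. The gene lists and positions came from the WBcel235 (ce11) annotation, and 167 of the 270 genes (61.9%) lay on chromosome V. Within them, 15 genes of receptor subgroups that are also found outside nematodes were described as conserved, 136 genes on chromosome V with another member's start within 50000 bp as clustered, and the remaining 119 as other members.

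Nuclear hormone receptors are transcription factors that bind DNA through a pair of zinc fingers and often change activity when a small lipophilic molecule occupies their ligand-binding domain. Nematodes carry an unusually large set of them, much of it thought to derive from an ancestor related to vertebrate HNF4, and many of these copies sit in runs on chromosome V. In C. elegans the studied receptors control fat metabolism and the response to fasting, detoxification, the dauer decision, developmental timing and the identity of particular neurons. PAX-3 is a paired-domain factor known in this animal for the fate of ventral hypodermal cells in the embryo.

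All libraries came from 1 group of worms of strain OP190, which carries the unc-119(ed3) III allele and the integrated transgene wgIs190, from which PAX-3 is expressed with a GFP-FLAG tag at its C terminus. The worms were L1 larvae, 6 h old, of both sexes pooled, held without food after bleaching, and chromatin was sheared by sonication to 200 to 800 bp and precipitated with an antibody against GFP. There were 2 biological replicates and no second condition, strain or factor, so no comparison between groups of samples was possible and no test was made. All animals carried the tagged transgene, and whole larvae were used, so a peak cannot be assigned to a tissue, and occupancy in a few cells cannot be told apart from weaker occupancy in many. The peaks of other factors were not analysed here, so sites that PAX-3 shares with many factors cannot be told apart from sites of its own.

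The authors' reproducible list, made with the irreproducible discovery rate (IDR), had signal values between 116.9 and 2034. These are the authors' own unitless peak signal and were used only to rank and describe peaks. Each of the other lists, 1 for the pooled replicates and 1 for each replicate, held 30000 peaks that include background by design. The IDR peaks were exactly the highest of the pooled list, and 1455 of them (68.02%) were matched in both replicates, which means that a summit lay within 100 bp among an equal number of highest peaks in each. Read depth was not given, so an absent peak says only that none was listed.

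A few sequences show where the stronger summits sat. The first 4 are the 250 bases directly upstream of the starts of nhr-47, nhr-291, nhr-252 and nhr-57, genes on chromosome V with a reproducible summit close to their start. They are given in ce11 coordinates on the plus strand, which is also the strand of all 4 genes, from the RefSeq copy of WBcel235. Capitals mark matches, on either strand, to GAGAG, to the GATA-type word TGATAA or to the receptor core word AGGTCA.
nhr-47 chrV:5505003-5505252: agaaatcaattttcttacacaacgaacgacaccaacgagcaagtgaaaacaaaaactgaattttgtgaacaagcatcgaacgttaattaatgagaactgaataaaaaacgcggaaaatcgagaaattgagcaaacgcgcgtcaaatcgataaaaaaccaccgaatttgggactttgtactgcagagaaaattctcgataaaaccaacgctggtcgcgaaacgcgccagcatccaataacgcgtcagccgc
nhr-291 chrV:15318711-15318960: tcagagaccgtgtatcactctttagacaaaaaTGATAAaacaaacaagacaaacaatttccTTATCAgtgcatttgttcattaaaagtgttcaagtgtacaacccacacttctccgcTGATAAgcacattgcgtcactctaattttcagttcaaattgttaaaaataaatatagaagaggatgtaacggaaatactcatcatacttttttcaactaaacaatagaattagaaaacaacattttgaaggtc
nhr-252 chrV:404369-404618: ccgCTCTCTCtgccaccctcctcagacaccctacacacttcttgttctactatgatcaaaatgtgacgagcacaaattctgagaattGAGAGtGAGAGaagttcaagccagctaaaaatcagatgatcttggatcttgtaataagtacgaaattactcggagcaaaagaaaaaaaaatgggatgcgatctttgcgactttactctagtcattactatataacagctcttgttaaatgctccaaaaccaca
nhr-57 chrV:4131639-4131888: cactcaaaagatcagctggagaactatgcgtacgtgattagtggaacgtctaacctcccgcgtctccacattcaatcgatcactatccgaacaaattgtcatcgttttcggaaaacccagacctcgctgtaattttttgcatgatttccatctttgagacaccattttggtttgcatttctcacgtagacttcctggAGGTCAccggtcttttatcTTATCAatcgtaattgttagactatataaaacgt
The summits of nhr-291, nhr-252 and nhr-57 fell at bases 124, 80 and 13 of their stretches, and that of nhr-47 lay 16 bp past its start, outside the bases shown. The nhr-291 stretch held 3 matches to TGATAA, the nhr-252 stretch held 4 to GAGAG counting overlaps, the nhr-57 stretch held 1 AGGTCA and 1 TGATAA, and the nhr-47 stretch held none of the searched words.

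The second set is 151 bases centred on summits far from a start or near a conserved gene: the 4 strongest upstream of nhr-6, the summit upstream of nhr-48 and that upstream of nhr-88. They are on the plus strand of the same build, the summit is base 76, and capitals mark matches to GAGAG, to the TGATAA word or to a homeodomain dimer word, in which TAAT faces its own inverse across 2 bases.
nhr-6 chrIII:3569830-3569980: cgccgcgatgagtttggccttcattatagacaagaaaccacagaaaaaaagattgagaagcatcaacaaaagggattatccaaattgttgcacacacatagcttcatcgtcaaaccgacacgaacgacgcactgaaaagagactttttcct
nhr-6 chrIII:3564887-3565037: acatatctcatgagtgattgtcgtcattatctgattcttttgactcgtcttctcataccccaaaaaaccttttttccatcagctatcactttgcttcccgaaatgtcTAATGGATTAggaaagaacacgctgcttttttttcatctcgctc
nhr-6 chrIII:3567196-3567346: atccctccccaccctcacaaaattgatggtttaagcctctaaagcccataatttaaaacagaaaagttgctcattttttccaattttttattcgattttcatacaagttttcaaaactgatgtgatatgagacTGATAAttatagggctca
nhr-6 chrIII:3571589-3571739: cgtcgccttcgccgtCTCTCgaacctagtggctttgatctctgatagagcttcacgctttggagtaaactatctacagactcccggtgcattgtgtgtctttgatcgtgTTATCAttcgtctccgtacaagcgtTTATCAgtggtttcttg
nhr-48 chrX:15707604-15707754: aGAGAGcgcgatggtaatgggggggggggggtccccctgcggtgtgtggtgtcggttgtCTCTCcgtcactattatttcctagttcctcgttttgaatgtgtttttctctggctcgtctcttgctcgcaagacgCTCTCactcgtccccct
nhr-88 chrII:2973998-2974148: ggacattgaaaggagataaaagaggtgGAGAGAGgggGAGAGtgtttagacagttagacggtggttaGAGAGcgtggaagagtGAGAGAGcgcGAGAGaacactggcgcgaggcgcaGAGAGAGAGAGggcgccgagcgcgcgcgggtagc
The strongest nhr-6 window held none of the searched words and the next strongest held the homeodomain dimer word. The nhr-88 window held 11 matches to GAGAG, counting overlaps.

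Over the whole reproducible list, promoter occupancy of the receptor genes was close to that of the genome. A reproducible summit lay between 1000 bp upstream and 200 bp downstream of the start of 20 of the 270 genes, which is 7.41% (95% Wilson interval 4.85% to 11.2%, counting error only), beside 6.99% of all protein-coding genes. The clustered chromosome V genes gave 9 of 136 (6.62%, 3.52% to 12.1%) and the other members 8 of 119 (6.72%, 3.45% to 12.7%). Over all receptor genes on chromosome V the count was 11 of 167 (6.59%), beside 5.89% of all protein-coding genes of that chromosome. Of the 15 conserved genes 3 had a promoter summit (20.0%, 7.05% to 45.2%), an interval whose lower bound lies next to the genome-wide share. The conserved list is not every such receptor: it left out 3 HNF4-like genes, nhr-49, nhr-35 and nhr-14. With these added, the count was 4 of 18 (22.2%).

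When each summit was instead given to the nearest protein-coding start at any distance, 40 receptor genes (14.8%, 11.1% to 19.5%) were the nearest start of at least 1 reproducible summit, beside 8.84% of all genes. The share was 24.3% off chromosome V (25 of 103, 17.0% to 33.4%), where it was 9.21% for all genes, and 8.98% on chromosome V (15 of 167), where it was 7.71% for all genes. Counting either assignment, 41 receptor genes (15.2%) had a reproducible PAX-3 summit, beside 10.7% of all genes, and 21 of them (7.78%) were reached only by nearest start, beside 3.67% of all genes. The 56 summits so assigned lay a median of 1600 bp from the start, against 764 bp for all reproducible summits, and 10 of them (17.9%) lay over 5000 bp away, against 10.5% of all summits.

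**Figure D1:**
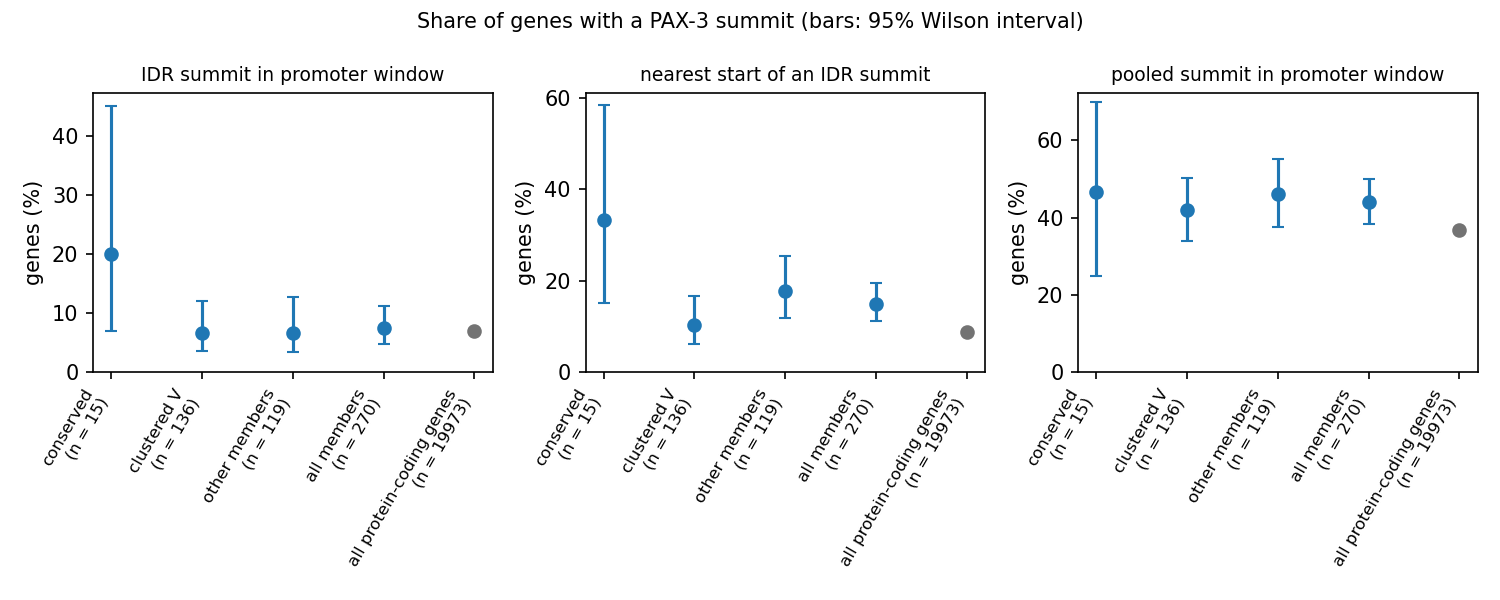
Share of genes (%, vertical axes) with a reproducible summit in the promoter window, nearest to a reproducible summit, and with a pooled summit in the promoter window, for conserved, clustered, other and all receptor genes and for all protein-coding genes; bars are 95% Wilson intervals for counting error. In the left panel all receptor genes (7.41%) sit beside all protein-coding genes (6.99%), and in the middle panel they sit at 14.8% and 8.84%.

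In the longer pooled list, 119 of the 270 genes (44.1%, 38.3% to 50.04%) had a promoter summit, beside 36.7% of all genes, and 207 (76.7%) were the nearest start of a pooled summit, beside 66.6% of all genes. Thus 20 genes had a reproducible promoter summit. Another 99 (36.7%, beside 29.7% of all genes) had one in the pooled list only, and 151 (55.9%, beside 63.3%) had none listed. The clustered genes on chromosome V gave 57 of 136 (41.9%, 34.0% to 50.3%) in this list, beside 37.4% of all genes of that chromosome. The strongest pooled promoter signal of the 119 receptor genes had a median of 60.8, beside 60.2 for the 7338 genes of the whole annotation that had one. Promoter summits were in the lists of both replicates for 74 receptor genes (27.4%, beside 23.1% of all genes). In the list of replicate 1 only they were found for 31 of 270, beside 2716 of all 19973 genes. In that of replicate 2 only they were found for 45, beside 2880.

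Among the 22 promoter summits of the 20 genes, the median signal was 157, against 202 for the 1072 summits in any protein-coding promoter window, and 7 of the 22 (31.8%) were among the 1069 reproducible peaks of highest signal, against 58.9% of the 1072. Replicate agreement was close between these sets: 16 of 22 (72.7%) had a match among the highest peaks of both replicates, against 74.2%. A window shared with another gene was seen for 2 of the 22 (9.09%), against 33.1%. The promoter summits of the receptor genes were thus of lower signal than the whole set and more often belonged to a single window, differences given without a test.

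The strongest promoter summit belonged to nhr-47 (chromosome V, 5505253 to 5509956, plus strand), with a pooled signal of 427. Its peak had signals of 234.8 in replicate 1 and 192 in replicate 2 and lay 16 bp downstream of the start in the 5′ untranslated region. The same window also belonged to dnj-19, a gene for a DnaJ-type chaperone, and noncoding RNA genes lay within 300 bp, so this summit cannot be given to nhr-47 alone.

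On chromosome V, nhr-196 followed with a pooled signal of 305, beside 189.5 in replicate 1 and 111.5 in replicate 2, at 109 bp downstream of its start. The summit of nhr-291 lay 127 bp upstream, with 275 in the pool, 148 in replicate 1 and 130.3 in replicate 2, and that of nhr-252 lay 171 bp upstream, with 234 in the pool, 134 in replicate 1 and 89.8 in replicate 2. The summit in the nhr-142 window had 263 in the pool, 126 in replicate 1 and 129 in replicate 2, and was nearer to the start of F44E7.9. All of these summits were matched in both replicates, and in the nhr-196 and nhr-252 peaks replicate 1 stood higher than replicate 2.

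Off chromosome V, nhr-105 (chromosome IV) had a summit of 259 in the pool and 131 in each replicate, at 270 bp upstream of its start. On the X chromosome, nhr-48, a conserved receptor related in sequence to daf-12, had 220.4 in the pool at 534 bp upstream, with 147 in replicate 1 and 74.5 in replicate 2. The replicates were close to each other for nhr-105, and the nhr-48 peak was much higher in replicate 1.

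The other 13 genes with promoter summits had signals between 119 and 177. They were nhr-6 (177), nhr-57 (167), whose expression is known to rise under low oxygen, nhr-168 (157), nhr-9 (156), nhr-254 (155), nhr-49 (154), nhr-158 (153), nhr-50 (152), nhr-26 (146), nhr-124 (132), nhr-167 (122), nhr-17 (121) and nhr-8 (119). Summits of nhr-124, nhr-167, nhr-17 and nhr-8 were matched among the highest peaks of 1 replicate only. The nhr-26 summit lay within the 3′ untranslated region of the neighbouring nhr-214. These values end at the lower edge of the list, where the line between listed and unlisted is thin: nhr-37 had a pooled promoter signal of 116.5, nhr-1 of 115.8 and nhr-32 of 114.7, just under the lowest reproducible peak at 116.9.

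**Figure D2:**
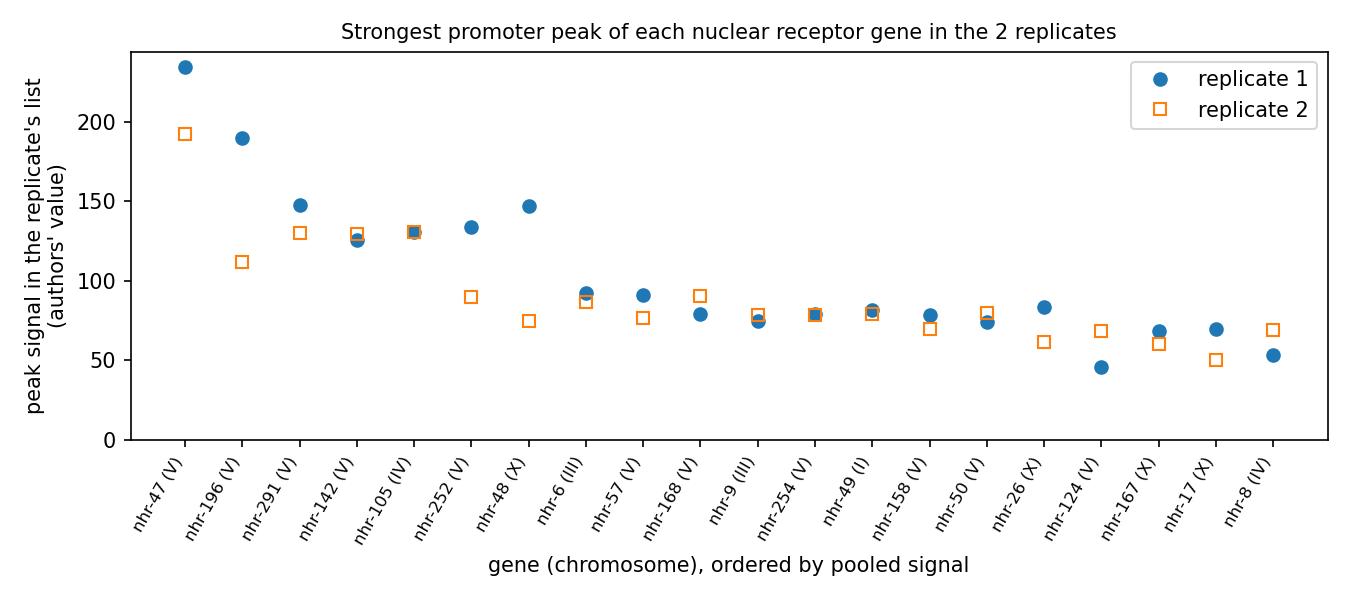
Signal of the strongest promoter peak (vertical axis, the authors' unitless value in each replicate's list) of the 20 receptor genes with a reproducible promoter summit, ordered by pooled signal, with filled circles for replicate 1 and open squares for replicate 2. The nhr-47 peak stands highest in both replicates (234.8 and 192), and nhr-48 shows a wide gap between replicates (147 and 74.5).

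The gene with the most reproducible summits was nhr-6 (chromosome III, 3573581 to 3578771, plus strand), a conserved receptor of the NR4A type that is needed for development of the spermatheca. It was the nearest start of 9 reproducible summits, more than any other protein-coding gene, and the next was zip-5 with 6. Of the 9 summits 8 lay upstream, 7 of them beyond 1000 bp, and all 9 spanned 9657 bp. The upstream space was wide, with 16953 bp free of protein-coding genes before C54C6.4. In the replicates taken alone nhr-6 also had the most, with 11 summits among the highest peaks of replicate 1, where the next gene had 6, and 9 in replicate 2, where the next gene had 5.

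The strongest nhr-6 summit lay 3676 bp upstream with a pooled signal of 802, rank 48 of the reproducible peaks, and had 502 in replicate 1 and 297 in replicate 2. The next lay 8619 bp upstream with 727, rank 71, and had 420 in replicate 1 and 316 in replicate 2. The summit at 6310 bp upstream had 367 in the pool, 183 in replicate 1 and 199.6 in replicate 2. These 3 distal summits had more signal than the promoter ones of the same gene, which had 177 at 822 bp upstream and 163 at 35 bp downstream, of which the second was matched in replicate 2 only.

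The remaining nhr-6 summits lay 1917 bp upstream (295), 8418 bp (234), 9622 bp (207) and 4860 bp (164). The peak at 8418 bp overlapped the stronger one at 8619 bp and had a match in replicate 1 only, so the 9 summits are not 9 separate sites. Of the 9, 7 were matched in both replicates. The pooled list gave nhr-6 14 summits in all. At 6310 bp and 35 bp a noncoding RNA gene lay within 300 bp.

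**Figure D3:**
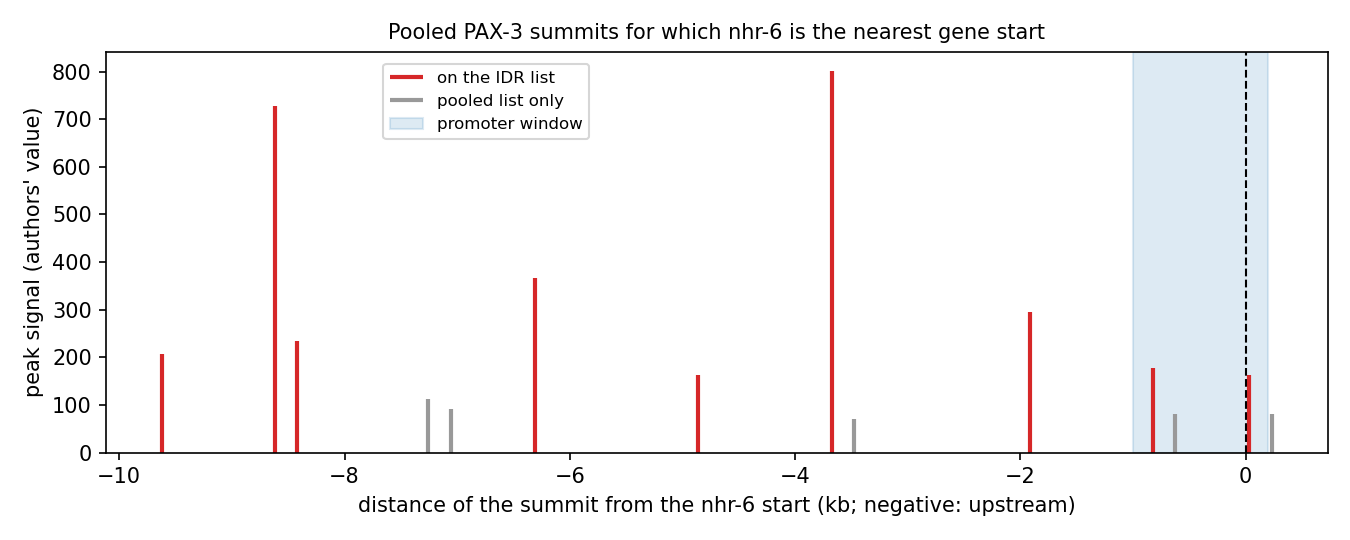
Pooled peak signal (vertical axis, the authors' unitless value) of the 14 summits nearest to the nhr-6 start, by distance from that start in kb (horizontal axis, negative upstream); red bars are the 9 on the reproducible list, grey bars are on the pooled list only and the blue band is the promoter window. The bars of 802 and 727 stand far upstream, and the promoter window holds lower ones.

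Outside promoter windows there were 35 summits nearest to a receptor gene, belonging to 23 genes. Of these 19 lay upstream beyond 1000 bp and 16 downstream of the start beyond 200 bp. Inside a gene there were 14, of which 12 were in an intron and 13 in the receptor gene itself, and 21 were intergenic. Summits past the promoter were therefore seen both upstream and in the bodies of the receptor genes. The same split was not made for all reproducible summits outside promoter windows, so it is not read as particular to these genes. Of all 56 summits nearest to a receptor gene 36 (64.3%) lay upstream of the start, against 69.3% of all reproducible summits.

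After nhr-6, the strongest belonged to nhr-88 on chromosome II, 2566 bp upstream, with a pooled signal of 608, 377 in replicate 1 and 225 in replicate 2. It lay in the window with 11 GAGAG matches printed above, and the nhr-88 promoter window had no reproducible summit. The nhr-3 gene on the X chromosome had 3 summits downstream of its start, with 405 at 3983 bp, past the end of the gene, 282 at 1862 bp in an intron and 119 at 3144 bp, also past the end. The first and second were matched in both replicates and the last in replicate 1 only.

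The nhr-19 gene had 366 at 1851 bp in an intron, with 226 in replicate 1 and 139.7 in replicate 2, and a weaker intronic summit of 139 that was matched in replicate 2 only. Upstream of its start nhr-20 had 302 at 4667 bp, nhr-21 had 251 at 1663 bp and nhr-157 had 246 at 1586 bp. Intronic summits of 201 at 947 bp and 187 at 4383 bp lay in nhr-36 and nhr-34. The strongest summit of each of these genes was matched in both replicates.

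**Figure D4:**
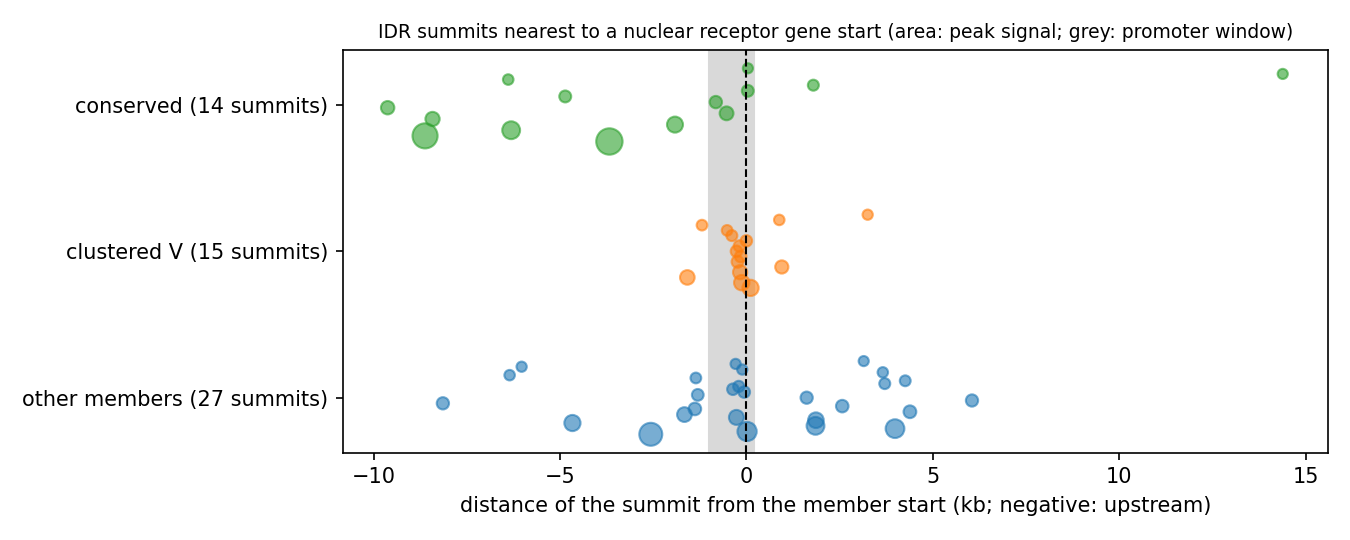
Distance in kb from the start (horizontal axis, negative upstream) of the 56 reproducible summits nearest to a receptor gene start, in rows for conserved, clustered and other members, with circle area proportional to pooled signal, the grey band marking the promoter window and vertical scatter within a row only separating circles. The 15 summits of clustered genes sit mostly near the start, and the 14 of conserved genes reach far upstream, 9 of them belonging to nhr-6.

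Receptor genes had wider space before their starts than genes at large, with a median of 1594 bp to the next protein-coding gene upstream, against 936 bp for all genes. The medians were 5584 bp for conserved, 890 bp for clustered and 2451 bp for other members. A nearest-start count depends on the distance to neighbouring starts on both sides. Each gene was therefore given the stretch of chromosome nearer to its start than to any other. The median stretch was 4038 bp for receptor genes, close to the 3858.5 bp of all genes. It was 7257.5 bp for conserved, 3262.25 bp for clustered and 5245 bp for other members. Measures by this stretch were not planned and were chosen after seeing the data. Per megabase of that stretch the receptor genes had 38.4 reproducible summits (56 in 1.46 Mb), against 21.3 for all genes, and 32.5 without nhr-6. On chromosome V the rate was 24.7, against 22.6 for all genes there, with 31.0 for the clustered genes (15 summits), and off it 49.3, or 38.8 without nhr-6, against 21.0. The conserved genes had 95.3 with nhr-6 and 37.6 without it, which rests on 5 summits.

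By the length of that stretch, none of 19 receptor genes with under 2000 bp was nearest to a reproducible summit, which allows a share of up to 15.8%, and 6.84% of all such genes were. From 2000 to 5000 bp it was 11 of 153 (7.19%), against 6.47% of all genes. From 5000 to 10000 bp it was 16 of 67 (23.9%, 15.3% to 35.3%), against 11.2%, and above 10000 bp 13 of 31 (41.9%, 26.4% to 59.2%), against 17.3%. Under 2000 bp the 19 receptor genes were too few to set beside all genes, and from 2000 to 5000 bp the shares were close. In the longer stretches the shares of receptor genes and of all genes stood apart. The part of other properties of these genes in that gap was not tested.

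**Figure D5:**
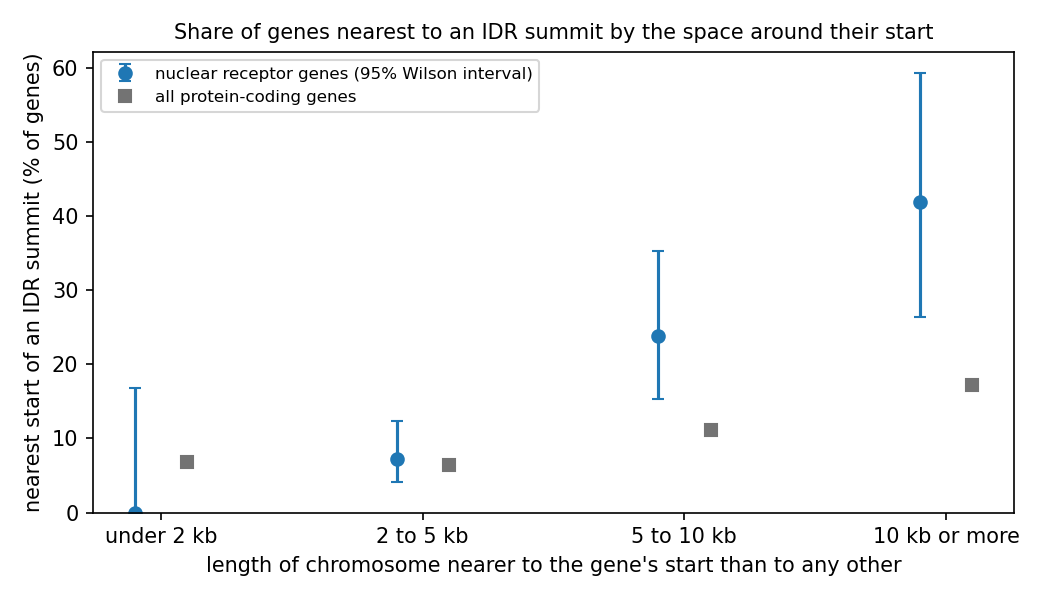
Share of genes that are the nearest start of a reproducible summit (%, vertical axis) by the length of chromosome nearer to their start than to any other (horizontal axis), for receptor genes with 95% Wilson intervals (circles) and for all protein-coding genes (squares). The circles and squares are close at 2 to 5 kb (7.19% and 6.47%) and separate above 10 kb (41.9% and 17.3%).

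Among the conserved receptors, those with a promoter summit were nhr-6, nhr-48 and nhr-8, the last a receptor known for toxin resistance and sterol balance. The nhr-8 summit had 119, with 53.4 in replicate 1 and 69.01 in replicate 2, at 38 bp downstream of the start, and was near the lower edge of the list. The dauer receptor gene daf-12 had no promoter summit in the pooled list, but 2 reproducible summits in introns, with 139.5 at 1793 bp and 119 at 14380 bp from its start, the second matched in neither replicate. A single summit of 129 lay 6389 bp upstream of nhr-41 and was matched in replicate 1 only.

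In the pooled list alone, nhr-85, a relative of the E75 and Rev-erb receptors, had a promoter signal of 78.5, nhr-64 had 71.0, nhr-41 had 69.4, and nhr-67, the tailless-type receptor, had 45.7. For nhr-69, nhr-91, nhr-111, nhr-239, sex-1, which takes part in counting X chromosomes, fax-1 and unc-55, which act in neuron identity, no promoter summit was listed there. All 15 conserved genes were nonetheless the nearest start of at least 1 pooled summit, beside 66.6% of all genes, and their median upstream space was 5584 bp, against 936 bp for all genes. The conserved genes thus divided into 3 with reproducible promoter summits, 4 with pooled ones only and 8, daf-12 included, with none. These were 20%, 26.7% and 53.3% of the 15, beside 6.99%, 29.7% and 63.3% of all genes. The last 2 shares lay near those of all genes.

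The 136 clustered genes on chromosome V formed 28 runs, the longest of 19 genes. Of these runs, 7 held a gene with a reproducible promoter summit. Longer runs have more genes that could hold one, and matching runs of other genes were not counted. By gene the share was 6.62%, near the 5.89% of all genes on the chromosome. A run of 10 genes between 3844429 and 3908452 held 6 summits nearest to 5 of its genes: 2 for nhr-158 (153 and 139), and 1 each for nhr-157 (246), nhr-124 (132), nhr-186 (132.0) and nhr-159 (128). The 2 nhr-158 peaks overlapped, so the 6 summits are not 6 separate sites. The weaker nhr-158 summit and those of nhr-124 and nhr-159 were matched in 1 replicate only. This run held more summits than any other run. Of all genes on the chromosome, 7.71% were nearest to a reproducible summit. A run of 19 genes between 392628 and 541485 held 2, those of nhr-252 and nhr-254, and 11 of its genes had a pooled promoter summit. Another run of 19 genes, between 2192485 and 2296977, held no reproducible summit, which allows a share of up to 15.8% of its genes, and 7 had a pooled one in their promoter window. Of all genes on the chromosome 37.4% had a pooled promoter summit. Neighbours in a run share a stretch of chromosome and are not independent of each other.

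By chromosome, the X gave 4 promoter-occupied receptor genes of 26 (15.4%), beside 4.72% of all genes on it. These were nhr-48, nhr-26, nhr-167 and nhr-17, the last 2 matched in 1 replicate only. Chromosome II gave 0 of 15, which allows up to 20%, beside 6.55% of all genes on it, although 4 of its receptor genes were nearest to a reproducible summit. On chromosome IV it was 2 of 33 (6.06%), beside 6.34%. Counts this small set no order among chromosomes.

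Receptors with known roles in metabolism and detoxification had promoter summits in 2 of 15, nhr-49 and nhr-8, beside 6.99% of all genes. The nhr-49 gene, a regulator of fat use and of the response to fasting, had 154 at 364 bp upstream, with 81.6 in replicate 1 and 79.2 in replicate 2. A summit of 184 lay 1384 bp upstream of nhr-10, a receptor of the propionate response, outside its promoter window. Receptors of development, moulting time and sex had promoter summits in 2 of 10, nhr-6 and nhr-48, and 4 of the 10 were the nearest start of one, daf-12 and nhr-41 included, beside 8.84% of all genes. None of the 5 nervous system receptors had one, a count so small that shares of up to 60% are allowed.

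Partners and targets of the receptors gave further counts. Among 7 coregulator genes 3 had a reproducible promoter summit: cbp-1, the p300/CBP acetyltransferase, with 849 at 892 bp upstream, din-1, a corepressor of DAF-12, with 231 at 655 bp, and gei-8, an N-CoR relative, with 142 at 867 bp. None of 8 genes of dafachronic acid synthesis and sterol supply had one, which allows up to 37.5%. A pooled promoter summit was listed for 5 of them, beside 36.7% of all genes. Of 8 known targets of nhr-49 only acs-2, an acyl-CoA synthetase, had a reproducible one, with 122 at 662 bp upstream. The counts of reproducible promoter summits stand beside the 6.99% of all genes. For the 3 of 7 coregulators the 95% Wilson interval was 15.8% to 74.95%, for counting error only. The other coregulators, mdt-15, hda-1, lin-40 and let-418, had no reproducible promoter summit and were the nearest start of none. These short lists were chosen with earlier results of these data known, so no excess over all genes is read from them.

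Short words were counted on both strands in 151 bases around each summit, overlaps allowed. GAGAG was in 13 of the 22 receptor promoter windows (59.1%) and in 26 of the 56 nearest-start windows (46.4%), against 44.9% of the windows of all reproducible summits. TGATAA was in 8 of 22 (36.4%) and 16 of 56 (28.6%), against 13.6% of all windows and 10.5% of the 1072 promoter ones. The receptor promoter windows were also poorer in G and C, with a mean of 37.8% against 43.1% for the 1072, and the part of base composition in the TGATAA share was not tested. In promoter stretches from 250 bases before to 50 after the start, TGATAA was in 30.4% of receptor genes and 30.2% of all genes, and GAGAG in 47.8% and 39.9%.

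The words tied to the factor types themselves were rare in the windows around summits. GTCACG, the core of a paired-domain site, was in 1 of the 22 promoter windows and 2 of the 56 nearest-start windows (3.57%), against 7.11% of all windows. The receptor core word AGGTCA was in none of either set, against 3.23% of all windows. The windows were too few to set that absence apart from this share. In the promoter stretches AGGTCA was in 11.1% of receptor genes and 8.27% of all genes, and GTCACG in 4.44% and 6.29%. The homeodomain dimer word with a gap of 2 bases was in 1 of the 56, the nhr-6 window 8619 bp upstream, against 0.561% of all windows. The form with a gap of 3 bases was in none of the 56, against 0.888%. A match describes letters in a window and is not itself a binding site.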

How the data were processed

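ChIP-seq peaks for tagged PAX-3 were analysed in 1 group of 2 biological replicates. Per the labels, the files are peak lists in ce11 coordinates; the reproducible list and the pooled and replicate lists made as input for IDR were used as deposited. The authors' signal value per peak is unitless, and the deposited −log10 q-value was carried along and not used to filter. The aligner, peak caller, IDR threshold and control were not given in the sources used here, and depth is unknown.

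Summits were placed against protein-coding genes of the Ensembl release 115 annotation of WBcel235, in a window of 1000 bp upstream to 200 bp downstream of the gene start and to the nearest start. A summit was matched in a replicate when a summit lay within 100 bp among as many of that replicate's highest peaks as the reproducible list has. Shares have 95% Wilson intervals, which cover counting error only, and a count of 0 allows 3 counts of the total. With 1 group no test was made; the scripts were tested on simulated data. The members and lists were chosen with earlier results of these data known. Named genes were every member with a promoter summit, every conserved member, up to 8 genes of highest signal outside promoters, and listed role and pathway genes with a promoter summit. The role lists share genes with the conserved group. Sequences came from the RefSeq copy of WBcel235; protein sequences were not used here. Alternatives were the window, the match distance, the 1069 reproducible peaks of highest signal, peaks away from noncoding RNA genes and each replicate left out. Python 3.11.15, pandas 2.3.3, numpy 2.4.6, scipy 1.17.1 and matplotlib 3.10.9 were used.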

Additional observations from a re-analysis of the deposited data

How the results depend on the processing

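No paired analysis was possible because there was 1 group of samples. Of 60 values recomputed under alternatives, 52 stayed within 1.5 times the reported one. With only the 1069 reproducible peaks of highest signal, receptor genes with a promoter summit numbered 7 (2.59%, against 4.46% of all genes) instead of 20, those nearest to a summit 17 (6.30%, against 4.83%) instead of 40, conserved genes 1 instead of 3 and clustered genes 3 instead of 9. With the 10000 highest pooled peaks, pooled promoter summits were listed for 58 genes (21.5%, against 17.6% of all genes) instead of 119, and 107 genes (39.6%, against 31.8%) were nearest to one instead of 207. These settings use fewer peaks. With the 1069 of highest signal the promoter share of receptor genes also went from above that of all genes (7.41%, against 6.99%) to below it. What lies behind that change was not tested. With peaks matched in both replicates, 16 genes had a promoter summit (5.93%, against 5.50% of all genes) and 29 were nearest to one (10.7%, against 6.46%).

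Leaving out replicate 1 gave 18 genes with a promoter summit (6.67%, against 7.1% of all genes) and 34 nearest to one (12.6%, against 8.95%). Without replicate 2 the values were 20 (7.41%, against 6.7%) and 41 (15.2%, against 8.68%). In the same order, pooled promoter summits were listed for 119 (44.1%, against 37.5%) and 105 (38.9%, against 36.7%). Nearest to a pooled summit were 207 (76.7%, against 67.5%) and 200 (74.1%, against 66.7%). Conserved genes with a promoter summit numbered 3 and 2, and clustered ones 9 in either case. The summits per megabase and their alternatives were chosen after seeing the data. The rates were 32.2 without replicate 1 and 39.1 without replicate 2, against 21.3 for all genes in each case. Without peaks near noncoding RNA genes the rate was 35 (17.2 for all genes). It was 25.4 (14.5 for all genes) with peaks matched in both replicates and 15.8 (10.7 for all genes) with the 1069 of highest signal. Depth is unknown, and peaks near the lower edge of the list decide many promoter calls.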
